A study of Mus musculus with 9 samples.

Results

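Cytosolic ribosomal proteins build the 2 subunits of the ribosome that translates nuclear-encoded mRNAs. Their genes were taken from the deposited count table as every protein-coding mouse gene whose symbol begins with Rpl or Rps and a digit, together with Rplp0, Rplp1, Rplp2 and Rpsa, without pseudogenes and without the ribosomal protein S6 kinases. This gave 86 genes of the 49671 rows of the table. They comprised 31 genes of the small (40S) subunit, 43 genes of the large (60S) subunit, 3 genes of the stalk (Rplp0, Rplp1 and Rplp2), 8 close relatives of these genes (paralogs), and Rps19bp1, which meets the naming rule but encodes a protein that binds Rps19 and is not part of the ribosome. The 77 genes of the subunits and the stalk are called core genes below. Fau and Rack1 also encode ribosomal proteins, but their symbols fall outside the rule.

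Each ribosome holds a single copy of most of these proteins, and cells make them in balanced amounts. Many of their mRNAs begin with an unbroken run of C and U called the terminal oligopyrimidine (TOP) tract, through which the kinase complex mTORC1 and the RNA-binding protein Larp1 set how strongly the mRNAs are translated and how long they are kept. A resting T cell is small and makes little protein, and antigen receptor signalling is known to start growth and ribosome production before division. Sequencing of total RNA measures the amount of these mRNAs, not their translation.

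The samples were CD3+ T cells enriched on columns from spleens of female F1 mice. The mothers were C57BL/6 mice that carried 1 deleted Xist allele and the fathers were M. m. castaneus, a cross in which X inactivation is skewed, and all 3 groups came from this cross. Inhibitor-treated cells were cultured for 48 h on plate-bound anti-CD3 at 1 µg/ml with soluble anti-CD28 at 10 µg/ml and with IMD-0354 at 2.5 µM, an inhibitor of the kinase IKK-beta that activates NF-kB. Stimulated cells had this culture without IMD-0354. Unstimulated cells were put into lysis reagent directly after isolation. Each group had 3 libraries, which the labels call biological replicates without saying whether they came from separate mice, and the p-values therefore reflect only how much these libraries varied, which may be technical. The labels name neither a vehicle for IMD-0354 nor cells cultured without stimulation, so culture and stimulation cannot be told apart.

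Libraries held 34009988 to 56221174 counts over genes. Inhibitor library 1 stood apart from the other 8 libraries. It had the fewest counts but counts in 30106 genes, against 20547 to 23223 in the others, and it lay at -76.7 on the third principal component, against 29.7 and 33.2 for the other inhibitor libraries. For comparisons with the inhibitor, the numbers of ribosomal protein genes called and their median log2 fold changes are therefore also given without it. The same holds for some single genes. The other inhibitor results are given only with this library included. Among them are the mean shares of counts, the calls by role, the marker and gene lists and the genes of the mitochondrial ribosome. Genes that mark T cells summed to 1731 to 1827 counts per 1000000 counts of the library (CPM) in inhibitor-treated cells, 1749 to 1921 CPM in stimulated cells and 1537 to 2382 CPM in unstimulated cells. Of the 8 B cell markers and the 8 myeloid markers, all 16 were called lower in stimulated than in unstimulated cells. The B cell markers summed to 149 to 154 CPM in inhibitor-treated, 71.2 to 80.6 CPM in stimulated and 981 to 2796 CPM in unstimulated cells. The myeloid markers summed to 14.4 to 34.7 CPM in inhibitor-treated, 8.37 to 11.98 CPM in stimulated and 852 to 1795 CPM in unstimulated cells, with C1qa at 0 in the stimulated libraries. Sums of the 4 NK cell markers were 32.1 to 41.0 CPM in inhibitor-treated, 23.5 to 27.6 CPM in stimulated and 185 to 220 CPM in unstimulated cells, and the 5 erythroid and 3 platelet markers were likewise summed highest in unstimulated cells (30.0 to 568 CPM and 9.24 to 14.0 CPM). In inhibitor-treated against stimulated cells 1 of the 4 NK cell markers, Eomes, was called higher (33.2 CPM in inhibitor-treated and 15.7 CPM in stimulated cells) and the other 3 were called lower. In the same comparison 4 of the 8 B cell markers were called higher and 0 lower, and Ighm alone averaged 121 CPM in inhibitor-treated and 55.7 CPM in stimulated cells. Of the 8 myeloid markers 4 were called higher and 1, Fcer1g, lower. All B cell, myeloid and NK cell markers, 4 of 5 erythroid and at least 2 of 3 platelet markers were called lower in both comparisons against unstimulated cells. Of the 8 T cell markers, 5 were not called in any given comparison. In stimulated against unstimulated cells Cd2 was called higher (log2 0.80) and 2 lower, with Cd3e at -0.84. With the inhibitor against stimulated cells Cd3e was called higher (1.00) and 2 lower, with Cd2 at -0.60. Against unstimulated cells 3 were called lower with the inhibitor. The part of these markers in the results below was not tested.

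The sequences around the annotated starts of 7 genes are shown first, because the genes responded differently and because the TOP tract, where present, lies at this place. Each window runs from 50 bases before the start to the 10 bases after it on the coding strand, from RefSeq on GRCm38.p6, and capitals mark the pyrimidine motif CTTTC and likewise the motif CTTCC, the motif CCTTT and the motif TCTTT where they lie within 10 bases of the start. The windows are Rps27 (chr3:90213639-90213698, minus strand), Rps27l (chr9:66946036-66946095, plus strand, at 1 of 2 listed starts), Rps2 (chr17:24720013-24720072, plus strand), Rpl13a (chr7:45128736-45128795, minus strand), Rpl28 (chr7:4792915-4792974, plus strand), Rps6 (chr4:86857358-86857417, minus strand) and Rplp2 (chr7:141447601-141447660, plus strand).
Rps27: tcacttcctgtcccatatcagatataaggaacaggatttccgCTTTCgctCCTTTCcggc
Rps27l: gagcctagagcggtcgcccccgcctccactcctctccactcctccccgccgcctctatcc
Rps2: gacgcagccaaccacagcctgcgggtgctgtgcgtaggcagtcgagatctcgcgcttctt
Rpl13a: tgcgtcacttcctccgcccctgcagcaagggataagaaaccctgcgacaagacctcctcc
Rpl28: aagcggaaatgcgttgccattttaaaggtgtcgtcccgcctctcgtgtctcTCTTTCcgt
Rps6: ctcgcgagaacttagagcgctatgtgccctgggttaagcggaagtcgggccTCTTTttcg
Rplp2: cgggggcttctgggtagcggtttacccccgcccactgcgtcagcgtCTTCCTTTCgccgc

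RefSeq promoter windows, from 250 bases before to 50 bases after the start, were found for 66 of the 86 genes. At least 1 of the 4 pyrimidine motifs lay on the coding strand within 10 bases of the start in 22 of the 66 genes (33.3%), in 10.7% of all 27025 promoters of the table and in 12.03% of the 11447 promoters of genes that entered the tests. The motifs overlap one another, so that CCTTTC holds both CCTTT and CTTTC. On either strand of the whole window, CCGGAAGT, a core sequence bound by ETS factors, was present in 18.2% of the ribosomal protein genes, 4.31% of all promoters and 8.48% of tested genes. AAGATGGC, a core bound by YY1, was present in 9.09% of the ribosomal protein genes, 3.19% of all promoters and 4.93% of tested genes. TATAAA, the TATA box letters, was present in 10.6% of the ribosomal protein genes, 15.7% of all promoters and 9.08% of tested genes. These matches describe letters in the windows and not binding. Other runs of C and T, such as the cttctt that ends the Rps2 window, were not searched. A gene without the pyrimidine motifs may therefore still have a TOP tract.

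The comparison of stimulated with unstimulated cells asks how the mRNAs of the ribosome differed 48 h after stimulation. Of all counts in a library, the 86 genes took 4.31%, 5.34% and 5.56% in inhibitor libraries 1 to 3, while stimulated libraries 1 to 3 gave 5.25%, 4.50% and 4.69%, and unstimulated libraries 1 to 3 gave 3.89%, 3.02% and 3.34%. All stimulated libraries lay above all unstimulated ones. The mean share was 4.81% ± 0.387 in stimulated and 3.42% ± 0.443 in unstimulated cells (SD, n = 3 each), a difference of 1.40 percentage points and a ratio of 1.41 (two-sided exact permutation p = 0.1, the smallest that 3 against 3 libraries can give). In bulk RNA a larger share of cells of a type and more RNA per cell cannot be told apart, and a share of counts says nothing of the amount of RNA in a cell.

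**Figure D1:**
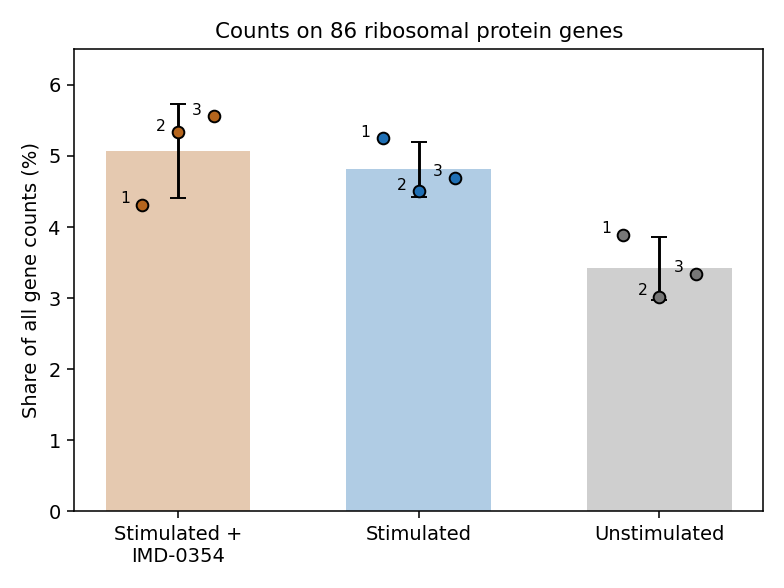
Percent of all counts taken by the 86 ribosomal protein genes (y axis) in the inhibitor-treated, stimulated and unstimulated groups (x axis), with 1 point per library numbered 1 to 3, bars at the group mean and error bars of 1 SD. The inhibitor libraries lie between 4.31% and 5.56%, the stimulated between 4.50% and 5.25%, and the unstimulated between 3.02% and 3.89%, below all the others.

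Levels and fold changes of single genes use CPM scaled with edgeR's TMM factors, and a gene is called changed at an adjusted p under 0.05 in edgeR's quasi-likelihood test over 18374 genes. Of the 86 genes, 84 passed the filter on low counts and were tested. In stimulated against unstimulated cells, 59 of the 84 were called higher, against a background of 32.0% of all genes tested, and 1 was called lower, against 34.0%. The median log2 fold change was 0.75, or 1.68-fold, while the median of all genes tested was -0.05. Among the 2109 genes with a mean of at least 100 CPM, a level that most core genes exceed, the median was 0.13. Of these 2109 genes, 925 were called higher (43.9%) and 734 lower. A rise of at least 2-fold was called for 21 of the 84 genes, against 19.5% of all genes, and a fall of that size for 1, against 23.2%. In 64 genes all stimulated libraries lay above all unstimulated ones, which was so for 35.4% of all genes, and in 1 gene all lay below, against 37.5%.

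The 60S genes were called higher in 36 of 43 cases, with a median log2 fold change of 0.82 and a range of 0.14 to 1.88. The 40S genes were called higher in 17 of 31 cases, with a median of 0.56 and a range of -0.31 to 1.72. No core gene was called lower. The 7 large-subunit genes that were not called had log2 fold changes of 0.14 to 0.81, and the 14 small-subunit genes that were not called had -0.31 to 0.57. The difference between the subunits was not tested.

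**Figure D2:**
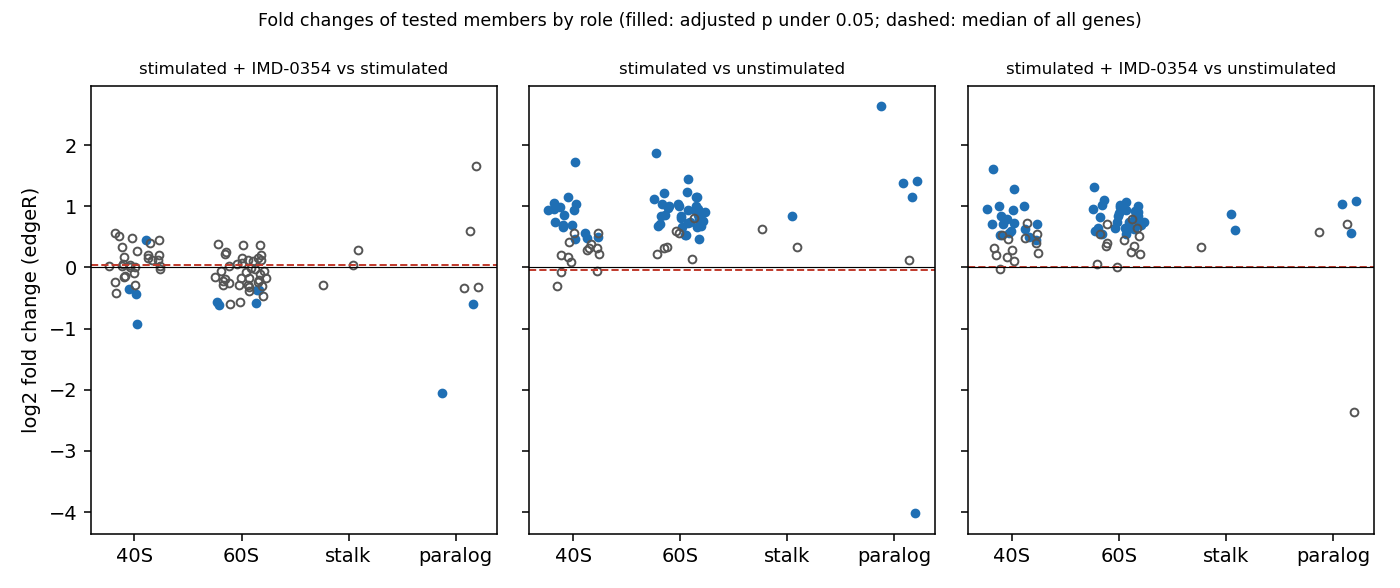
Log2 fold changes of the tested genes by role (40S, 60S, stalk, paralog) in 3 panels, inhibitor-treated against stimulated, stimulated against unstimulated, and inhibitor-treated against unstimulated. Filled points passed an adjusted p of 0.05, open points did not, and the dashed line is the median of all genes tested (0.03, -0.05 and -0.00). Most points lie near 0 in the first panel and above 0 in the other panels, and Rpl3l and Rps27l are the far points among the paralogs. Rps19bp1 is not drawn.

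Among the small-subunit genes, Rps2 (ENSMUSG00000044533, chr17:24718116-24721929 in the mm10 build), whose protein lies at the entry of the mRNA channel, had 822, 774 and 799 CPM in inhibitor-treated cells, 1146, 1077 and 1021 CPM in stimulated cells, and 328, 329 and 326 CPM in unstimulated cells. The 3 groups did not overlap and the unstimulated libraries hardly differed. Its log2 fold change was 1.72 ± 0.08 (SE) in stimulated against unstimulated cells, or 3.30-fold, with an adjusted p of 6.6e-08 (edgeR). Pseudogene rows named after Rps2 took 14.3% of the counts of the gene and its pseudogenes together, so its level is uncertain.

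Rpl13a (ENSMUSG00000074129, chr7:45125558-45128761), a large-subunit gene, had 91.4, 112 and 121 CPM in inhibitor-treated cells, 171, 155 and 154 CPM in stimulated cells, and 45.7, 40.7 and 44.4 CPM in unstimulated cells. Again no library of a group reached the range of another. Stimulated cells held 3.67-fold more than unstimulated cells (log2 1.88 ± 0.11, SE), with an adjusted p of 3.6e-07 (edgeR), the highest among core genes.

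Rpl41, which encodes a very short basic peptide of the large subunit, had 426, 725 and 729 CPM in inhibitor-treated, 904, 785 and 768 CPM in stimulated and 334, 286 and 278 CPM in unstimulated cells. Stimulated and unstimulated libraries did not overlap, with a log2 fold change of 1.45 ± 0.19 (SE, adjusted p = 7.2e-05, edgeR). Rpsa, the laminin receptor precursor of the small subunit, averaged 2126 ± 36.5 CPM in inhibitor-treated, 2126 ± 89.1 CPM in stimulated and 1111 ± 104 CPM in unstimulated cells (SD, n = 3 each). Its level was therefore 1.91-fold higher in stimulated cells (log2 0.94 ± 0.09, SE, adjusted p = 1.2e-05, edgeR).

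Rps6, the subunit protein phosphorylated downstream of mTORC1, had 399, 393.5 and 412 CPM in inhibitor-treated, 347, 310 and 348 CPM in stimulated and 267, 202 and 258 CPM in unstimulated cells. The log2 fold change of 0.47 ± 0.11 (SE, adjusted p = 0.0029, edgeR) was among the smallest of the genes called higher in stimulated cells, beside Rps19 at 0.48 and Rps4x at 0.50. Pseudogene rows took 41.4% of the counts of Rps6 with its pseudogenes, and 24.7% in the case of Rps19, so these levels are uncertain. Rps27a, which is made as a fusion of ubiquitin and a small-subunit protein, averaged 605 ± 192 CPM in inhibitor-treated, 597 ± 157 CPM in stimulated and 302 ± 27.6 CPM in unstimulated cells (SD, n = 3 each). It was called higher in stimulated cells at 1.98-fold (adjusted p = 0.0043, edgeR).

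Rpl5 and Rpl11 travel to the ribosome with the 5S rRNA and, when free, bind the p53 regulator Mdm2. Rpl5 had 843, 967 and 955 CPM in inhibitor-treated, 941, 773 and 776 CPM in stimulated and 608, 407 and 555 CPM in unstimulated cells. Rpl11 had 257, 353 and 403 CPM in inhibitor-treated, 616, 430 and 470 CPM in stimulated and 328, 222 and 242 CPM in unstimulated cells. Both rose in stimulated cells without overlap, by log2 0.67 ± 0.15 for Rpl5 (adjusted p = 0.0025) and 0.94 ± 0.20 for Rpl11 (adjusted p = 0.0022; SE, edgeR).

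Several small-subunit genes of high level did not pass the test in either direction. Rps27 had 476, 880 and 886 CPM in inhibitor-treated, 748, 433 and 386 CPM in stimulated and 878, 485 and 575 CPM in unstimulated cells, and the 3 groups overlapped. Stimulated against unstimulated cells gave log2 -0.31 ± 0.32 (SE, adjusted p = 0.41, edgeR). Rps29 had 327, 539 and 601 CPM in inhibitor-treated, 432, 440 and 537 CPM in stimulated and 673, 375 and 440 CPM in unstimulated cells, with a log2 fold change of -0.08 ± 0.25 (SE, adjusted p = 0.79, edgeR). Library 1 of the unstimulated group held the highest value of that group for both genes, and the spread within groups was wider than the difference between them.

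The stalk proteins recruit elongation factors to the ribosome, Rplp0 as the base and Rplp1 and Rplp2 as pairs bound to it. Rplp0 had 1184, 1610 and 1661 CPM in inhibitor-treated, 1409, 1433 and 1509 CPM in stimulated and 835, 688 and 907 CPM in unstimulated cells. It was called higher in stimulated cells, by log2 0.84 ± 0.14 (SE, adjusted p = 0.00048, edgeR). Rplp1 had 519, 1044 and 1103 CPM in inhibitor-treated, 1100, 1032 and 1131 CPM in stimulated and 878, 542 and 695 CPM in unstimulated cells. The stimulated and unstimulated libraries of Rplp1 did not overlap, but the log2 fold change of 0.63 ± 0.26 missed the threshold (adjusted p = 0.054, edgeR). Rplp2 averaged 800 ± 169 CPM in inhibitor-treated, 654 ± 127 CPM in stimulated and 522 ± 136 CPM in unstimulated cells (SD, n = 3 each), with a log2 fold change in stimulated cells of 0.33 ± 0.22 (SE, adjusted p = 0.21, edgeR).

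Per kilobase of exon, the highest mean levels over the 9 libraries were those of Rplp1 at 1791 CPM per kb, Rpl4 at 1141, Rps15 at 955, Rplp0 at 753 and Rps29 at 700. The lowest core genes were Rpl24 at 12.6 CPM per kb, Rpl13a at 49.2 and Rpl22 at 65.0. Rpl4, which lines the tunnel through which new proteins leave, averaged 2978 ± 322 CPM in inhibitor-treated, 2505 ± 156 CPM in stimulated and 1386 ± 181 CPM in unstimulated cells (SD, n = 3 each), the highest mean CPM of the family.

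**Figure D3:**
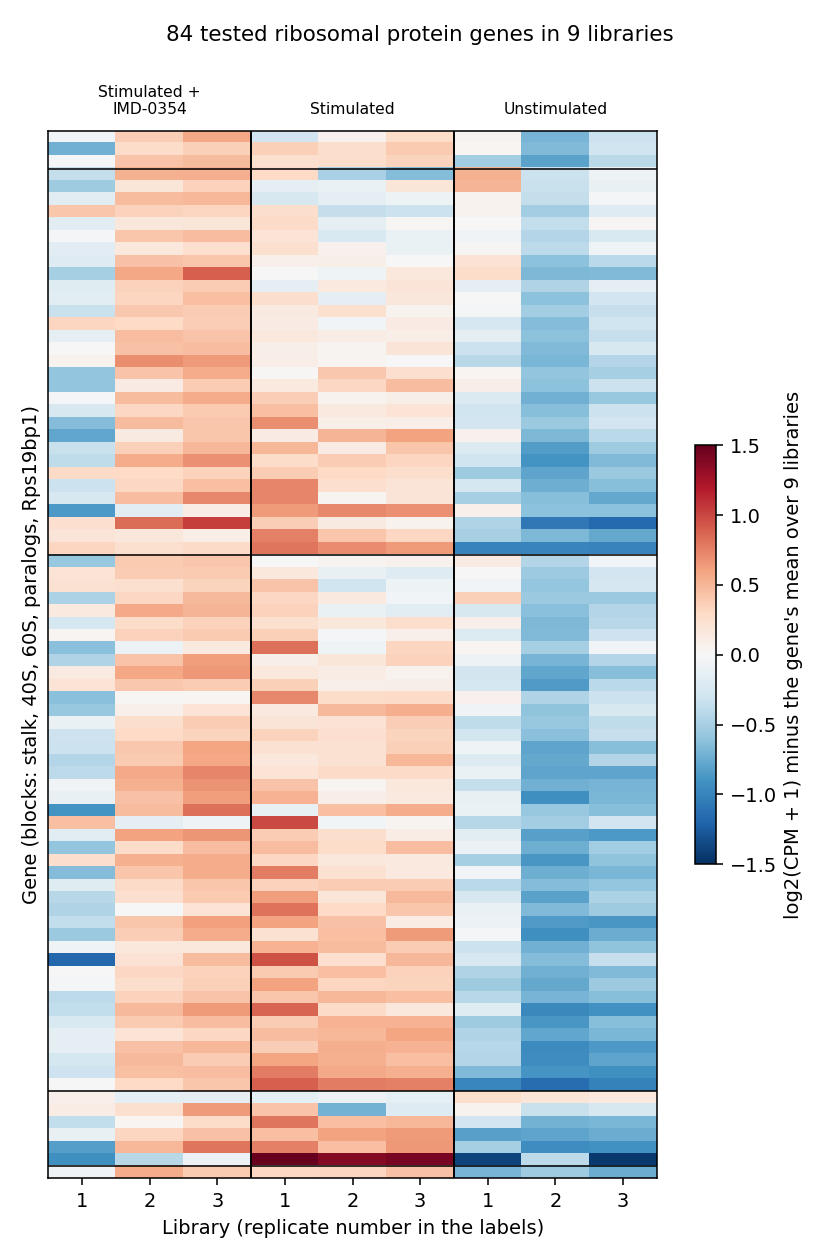
Level of each tested gene (rows, not named, grouped by role and ordered by fold change in stimulated against unstimulated cells) in each library (columns: inhibitor-treated 1 to 3, stimulated 1 to 3, unstimulated 1 to 3), as log2(CPM + 1) minus the gene's mean over the 9 libraries, with colours that stop at 1.5 and -1.5. Most rows are lowest in the unstimulated libraries, and inhibitor library 1 is paler or bluer than inhibitor libraries 2 and 3 in most rows.

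Library differences within a group were shared by most of the family. Inhibitor library 1 held the lowest value of its group for 78 of the 84 tested genes and inhibitor library 3 the highest for 69. Among unstimulated libraries, library 1 was highest for 74 genes and library 2 lowest for 70. Among stimulated libraries, library 1 was highest for 49. These orders were not counted over all genes tested, so they cannot be read as particular to the family. Unstimulated library 2 also had the highest sum of B cell markers (2796 CPM, against 1998 and 981 CPM in libraries 1 and 3) and of myeloid markers (1795 CPM, against 1176 and 852 CPM), and the lowest sum of T cell markers (1537 CPM, against 1989 and 2382 CPM). The order of libraries 1 and 3 differed between the markers and the ribosomal protein genes. The median coefficient of variation of the core genes was 24.1% in inhibitor-treated, 11.6% in stimulated and 18.4% in unstimulated cells.

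The comparison of inhibitor-treated with stimulated cells asks whether the family depended on the kinase that IMD-0354 inhibits. The share of counts was 5.07% ± 0.665 in inhibitor-treated and 4.81% ± 0.387 in stimulated cells (SD, n = 3 each), and the groups overlapped (difference 0.255 percentage points, two-sided exact permutation p = 0.7). Of the 84 genes, 1 was called higher, against 21.7% of all genes tested, and 10 were called lower, against 22.8%. Both shares lay below the background in this fit. The median log2 fold change was -0.03, and 0.03 for all genes tested, but it turned to 0.087 with upper-quartile scaling, which called 10 genes higher and 5 lower, and to 0.032 with no scaling factors, which called 10 higher and 9 lower. The median of all genes moved to 0.16 with upper-quartile scaling and to 0.12 with no scaling factors, so that the family stayed below it under both, and 26.3% and 23.7% of all genes were then called higher. No gene was called at least 2-fold higher (9.31% of all genes) and 1 was called at least 2-fold lower (10.8%). In 3 genes all inhibitor libraries lay above all stimulated ones (28.0% of all genes) and in 12 genes below (29.4%). With no low-count filter, 10 of 85 genes were called higher, against 10.8% of 34271 genes, and 20 lower, against 4347 of the 34271. Neither share then lay below the background.

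The mRNAs of the mitochondrial genome took 2.58% ± 0.262 of counts in inhibitor-treated, 1.40% ± 0.122 in stimulated and 1.10% ± 0.174 in unstimulated cells (SD, n = 3 each), and their part in these results was not tested.

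Most of the calls made with TMM and the low-count filter were lost when inhibitor library 1 was left out. Without it, 6 genes were called higher, Rpl14, Rps12 and Rps7 among them, 4 were called lower, Rpl13a, Rps2 and Rps27l among them, and the median log2 fold change was 0.12. The median of all 19127 genes tested in that fit was -0.001, below that of the family, and 3458 of them were called higher and 3859 lower. Across the core genes, library 1 lay below the mean of inhibitor libraries 2 and 3 by a median of -0.65 on the log2 scale. As a description over 77 genes that share these libraries, this difference had a Spearman correlation of 0.42 and a Pearson correlation of 0.20 with transcript length, with the shorter mRNAs further below. The log2 fold change in inhibitor-treated against stimulated cells had a Spearman correlation of 0.01 with length.

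The 4 genes called lower with and without inhibitor library 1 were also called lower under every other setting tried. The largest of these differences was that of Rps27l, with a log2 fold change of -2.05 ± 0.32 (SE, adjusted p = 0.00061, edgeR) and a range of -2.27 to -1.86 over 16 alternative settings.

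Rpl13a and Rps2 took intermediate levels. In inhibitor-treated against stimulated cells Rpl13a fell by 0.56 ± 0.11 on the log2 scale (SE, adjusted p = 0.0019) and Rps2 fell by 0.44 ± 0.07 (SE, adjusted p = 0.00097, edgeR). Against unstimulated cells both were still higher in inhibitor-treated cells, by 2.48-fold for Rpl13a (adjusted p = 5.9e-06) and 2.44-fold for Rps2 (adjusted p = 6.4e-07, edgeR). Other genes called lower in inhibitor-treated cells included Rpl31 at log2 -0.61, Rpl36al at -0.60, Rpl11 at -0.58, Rpl28 at -0.38, Rpl27 at -0.38 and Rps26 at -0.36. None of these 6 passed without inhibitor library 1 (log2 -0.44 to -0.25, adjusted p = 0.055 to 0.12, edgeR), and none passed without stimulated library 1 (log2 -0.49 to -0.22, adjusted p = 0.058 to 0.15), and all 6 stayed lower in both fits. For Rpl31 the values were 274, 430 and 433 CPM in inhibitor-treated, 701, 513 and 518 CPM in stimulated and 442, 309 and 338 CPM in unstimulated cells.

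Rps12, a small-subunit gene, had 682, 1028 and 1180 CPM in inhibitor-treated, 743, 629 and 594 CPM in stimulated and 418, 273 and 255 CPM in unstimulated cells. It did not pass against stimulated cells (log2 0.56 ± 0.22, SE, adjusted p = 0.069, edgeR). Without inhibitor library 1 it passed, at log2 0.75 (adjusted p = 0.015, edgeR).

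**Figure D4:**
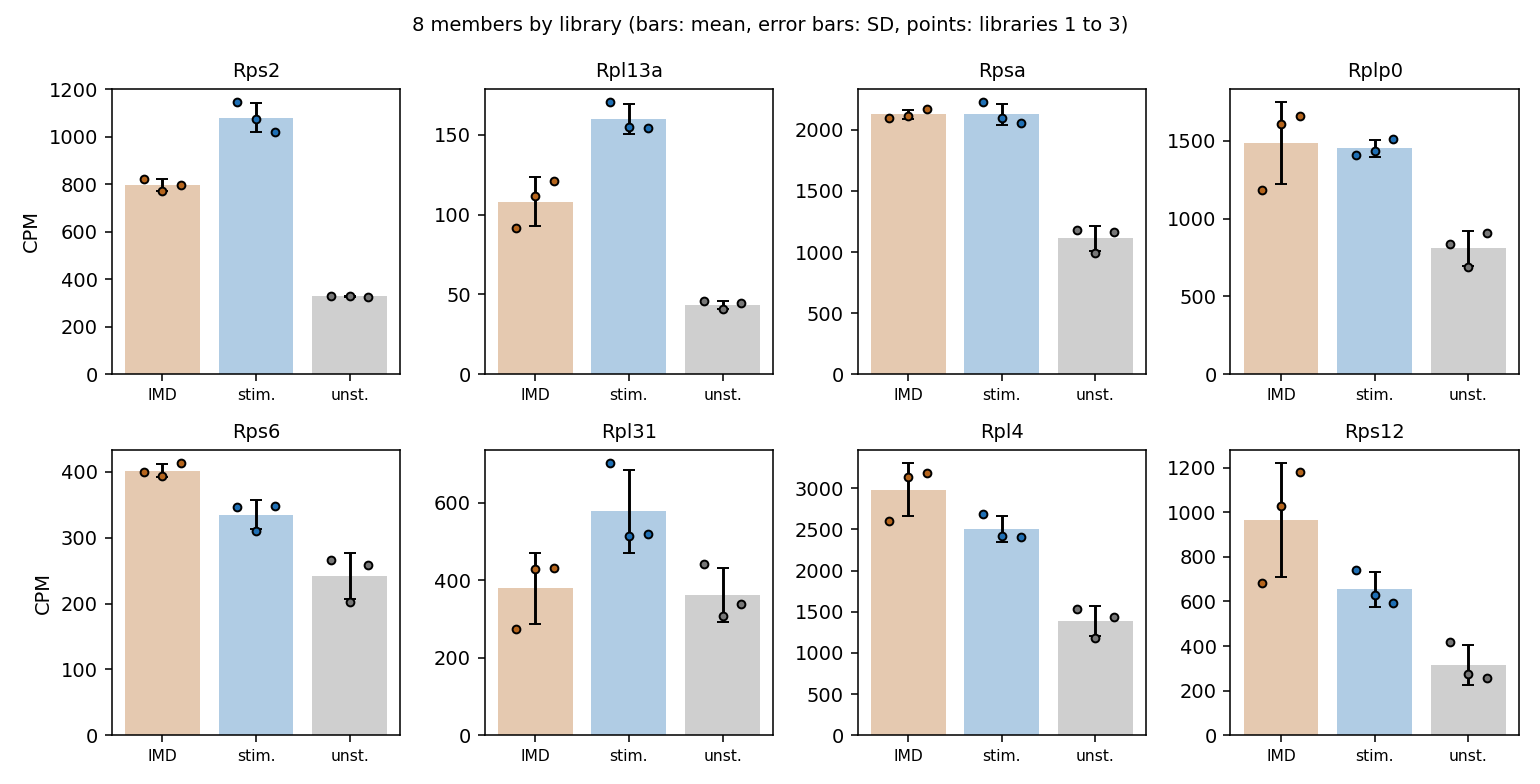
Levels in CPM (y axes, from 0) of Rps2, Rpl13a, Rpsa, Rplp0, Rps6, Rpl31, Rpl4 and Rps12 in inhibitor-treated (IMD), stimulated (stim.) and unstimulated (unst.) cells, with points for libraries 1 to 3, bars at the mean and error bars of 1 SD. Rpsa averages 2126 CPM in both cultured groups and 1111 CPM in unstimulated cells, and Rps2 and Rpl13a are highest in stimulated cells.

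In inhibitor-treated against unstimulated cells, 54 of the 84 genes were called higher, against 26.3% of all genes tested, and 0 were called lower, against 26.1%. No gene was lower at an unadjusted p under 0.05 either, while 58 were higher, and DESeq2 called 0 lower and limma voom 1, Rpl3l. Of the 2109 genes with a mean of at least 100 CPM, 875 were called higher (41.5%) and 601 lower. The median log2 fold change of the family was 0.67, or 1.59-fold, and -0.00 over all genes tested. The share of counts was 5.07% in inhibitor-treated and 3.42% in unstimulated cells, a ratio of 1.48 (two-sided exact permutation p = 0.1). In 39 genes all inhibitor libraries lay above all unstimulated ones (29.4% of all genes) and in 1, Rpl3l, below (30.5%). Without inhibitor library 1, 70 genes were called higher and 1 lower, with a median of 0.84, against 35 higher without inhibitor library 2 and 36 without inhibitor library 3. Of all genes, 25.1%, 21.3% and 21.3% were called higher in these fits, in this order.

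By role, 18 of 31 small-subunit genes, 30 of 43 large-subunit genes and 2 of 3 stalk genes were called higher in inhibitor-treated than in unstimulated cells. Medians of the log2 fold change were 0.57 for the 40S and 0.74 for the 60S genes. A rise of at least 2-fold was called for 12 genes, against 10.8% of all genes, and a fall of that size for 0, against 17.1%. The highest were Rps12 at log2 1.61 ± 0.23 (adjusted p = 0.00022), Rpl13a at 1.31 ± 0.11, Rps2 at 1.29 ± 0.07 and Rpl4 at 1.10 ± 0.13 (adjusted p = 4.9e-05; SE, edgeR). Stimulated and inhibitor-treated cells were set against the same unstimulated libraries, so these results share their controls with those of stimulated cells. Over the 3 group means, 46 of the 84 genes were highest in stimulated cells, 36 in inhibitor-treated cells and 2 in unstimulated cells, and 80 were lowest in unstimulated cells.

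The 8 paralogs are related genes that can encode alternative forms of a ribosomal protein or, as for Rpl7l1, a factor of similar sequence. Rpl10l, a retrogene known from the male germ line, had no counts in any library. If each count is an independent fragment, which is not known here, this allows up to 3 counts per library or 0.0534 to 0.0882 CPM before scaling (counting error only). Rpl39l had 6 counts in inhibitor library 2, 4 in stimulated library 3 and 0 in the other libraries. These 2 genes were not tested. Rpl3l, known from striated muscle, had 6, 0 and 0 counts in inhibitor-treated, 0, 2 and 0 counts in stimulated and 13, 11 and 11 counts in unstimulated cells. It was the gene called lower in stimulated cells (adjusted p = 0.031, edgeR), at levels below 0.4 CPM throughout, and the call was lost without a low-count filter, in DESeq2 and on leaving out any 1 of the 6 libraries compared except stimulated library 2, so that 8 of 15 alternatives kept it.

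Rps27l (ENSMUSG00000036781, chr9:66946086-66949516), a relative of Rps27 that responds to p53 in human and mouse cells, had 16.0, 23.0 and 29.0 CPM in inhibitor-treated, 115, 82.0 and 85.3 CPM in stimulated and 11.2, 23.5 and 10.7 CPM in unstimulated cells. The stimulated libraries lay far above all others, and the inhibitor-treated and unstimulated libraries overlapped. Its log2 fold change was 2.63 ± 0.33 (SE, 6.21-fold, adjusted p = 5.4e-05) in stimulated against unstimulated cells, the highest of the 84 genes. It was 0.58 ± 0.31 in inhibitor-treated against unstimulated cells (adjusted p = 0.15, edgeR). Rps27 itself was not called in any comparison. With the inhibitor it was at log2 0.52 against stimulated (adjusted p = 0.22) and 0.21 against unstimulated cells (adjusted p = 0.61, edgeR). With no low-count filter it was called higher in inhibitor-treated than in stimulated cells (adjusted p = 0.0034, edgeR).

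The coding sequences of Rps27l and Rps27 show how far reads of the pair can be told apart. Both are 255 bases long and differ at 61 positions (76.1% identity), spread over the whole length, from GENCODE M21 transcripts on GRCm38. Capitals mark the positions that differ.
Rps27l: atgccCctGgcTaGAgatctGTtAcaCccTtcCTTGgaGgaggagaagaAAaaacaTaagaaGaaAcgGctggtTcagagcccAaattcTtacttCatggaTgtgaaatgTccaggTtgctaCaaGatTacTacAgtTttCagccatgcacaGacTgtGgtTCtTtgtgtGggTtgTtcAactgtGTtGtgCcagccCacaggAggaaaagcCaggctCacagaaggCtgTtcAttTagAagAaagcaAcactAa
Rps27: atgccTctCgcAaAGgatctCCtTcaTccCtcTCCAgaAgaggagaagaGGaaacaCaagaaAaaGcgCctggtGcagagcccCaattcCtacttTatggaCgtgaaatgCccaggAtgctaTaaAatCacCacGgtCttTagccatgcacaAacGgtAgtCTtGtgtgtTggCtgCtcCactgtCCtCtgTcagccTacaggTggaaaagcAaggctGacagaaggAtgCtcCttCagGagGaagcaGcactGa
The longest stretch without a difference is 11 bases. By contrast, the coding sequence of Rps27rt, an intronless copy, was identical to that of Rps27 at all 255 positions, and reads from the coding part of the pair cannot be told apart. Rps27rt averaged 3.43 ± 0.882 CPM in inhibitor-treated, 2.28 ± 1.28 CPM in stimulated and 2.10 ± 0.438 CPM in unstimulated cells (SD, n = 3 each) and passed no test.

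Rpl22l1, which shares 67.5% of its coding sequence with Rpl22, had 51.8, 131 and 162 CPM in inhibitor-treated, 157, 127 and 146 CPM in stimulated and 65.2, 47.9 and 48.8 CPM in unstimulated cells. It was called higher in stimulated cells (log2 1.41 ± 0.33, SE, adjusted p = 0.0036, edgeR), and inhibitor library 1 fell within the unstimulated range while inhibitor libraries 2 and 3 did not. Rpl22 averaged 215 ± 70.3 CPM in inhibitor-treated, 233 ± 39.8 CPM in stimulated and 120 ± 40.1 CPM in unstimulated cells (SD, n = 3 each), with log2 0.96 ± 0.28 in stimulated against unstimulated cells (SE, adjusted p = 0.011, edgeR). Rpl36al, 87.9% identical to Rpl36a, averaged 73.9 ± 16.3 CPM in inhibitor-treated, 112 ± 15.2 CPM in stimulated and 50.3 ± 8.72 CPM in unstimulated cells. Rpl7l1, 54.5% identical to Rpl7, averaged 64.0 ± 12.4 CPM in inhibitor-treated, 80.9 ± 5.47 CPM in stimulated and 31.2 ± 0.713 CPM in unstimulated cells (SD, n = 3 each). Both rose in stimulated against unstimulated cells, by log2 1.15 ± 0.18 for Rpl36al (adjusted p = 0.00024) and 1.38 ± 0.13 for Rpl7l1 (adjusted p = 1.0e-05; SE, edgeR). Rps19bp1, the binding protein of Rps19, averaged 12.7 ± 2.83 CPM in inhibitor-treated, 12.99 ± 0.676 CPM in stimulated and 5.95 ± 0.546 CPM in unstimulated cells (SD, n = 3 each) and was called higher in both cultured groups against unstimulated cells.

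**Figure D5:**
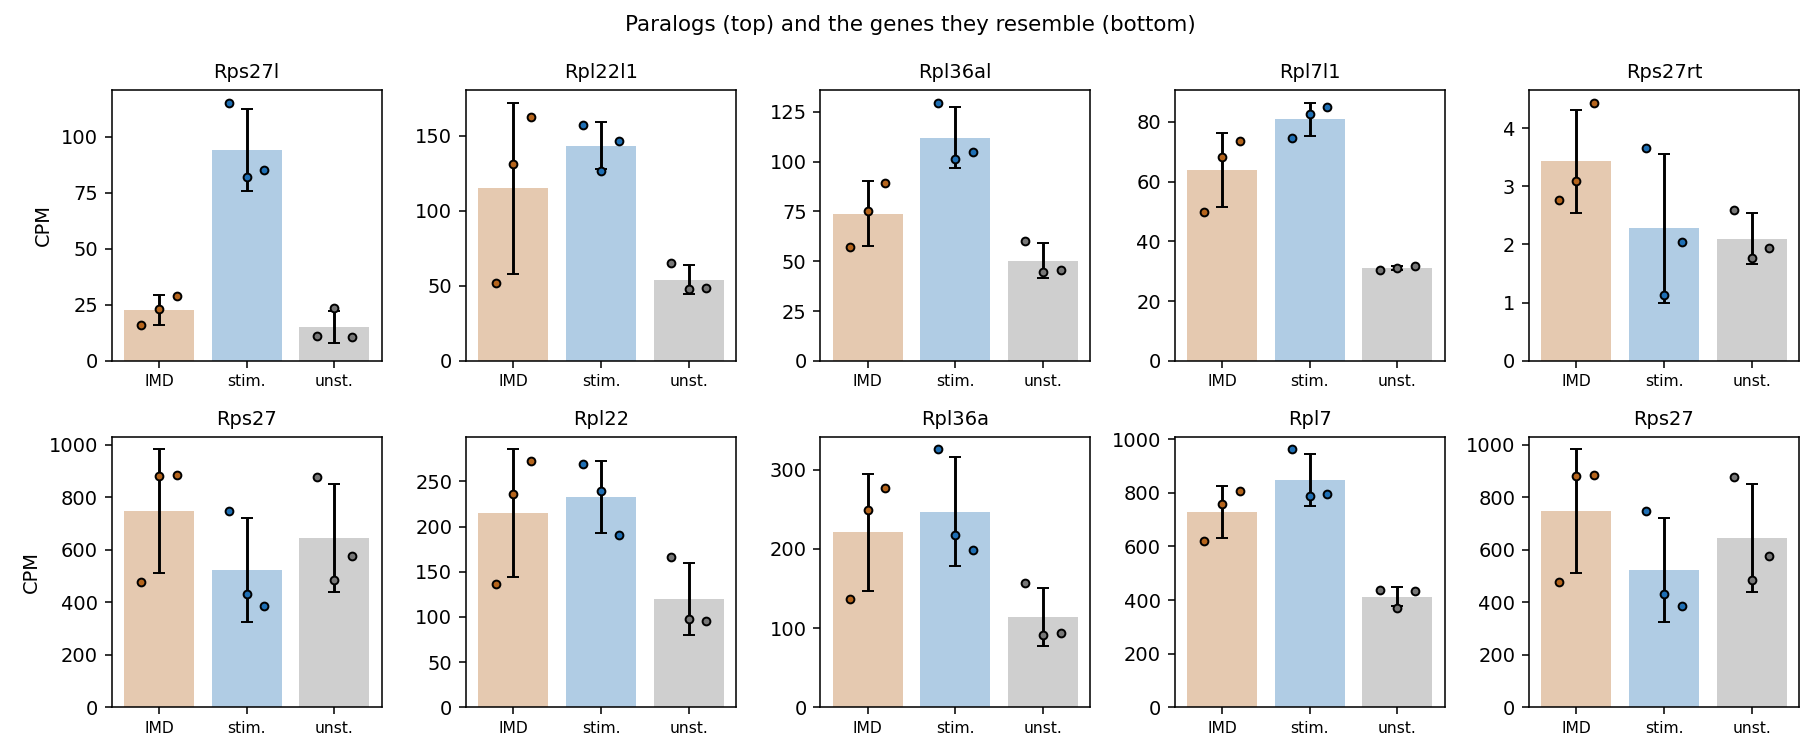
Levels in CPM (y axes, from 0, with a scale of their own in each panel) of Rps27l, Rpl22l1, Rpl36al, Rpl7l1 and Rps27rt in the top row and of Rps27, Rpl22, Rpl36a, Rpl7 and Rps27 below them, in inhibitor-treated (IMD), stimulated (stim.) and unstimulated (unst.) cells, with points for libraries, bars at the mean and error bars of 1 SD. Rps27l averages 94.1 CPM in stimulated cells, against 22.7 CPM in inhibitor-treated and 15.2 CPM in unstimulated cells, while the Rps27 groups overlap.

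Rpl10, Rps4x, Rpl36a and Rpl39 lie on the X chromosome, and all 4 were called higher in stimulated cells, against 59 of the 84 tested genes of the family and 32.0% of all genes. The call of Rpl39 (adjusted p = 0.028, edgeR) held in 10 of 16 alternative settings. Rpl10 had 595, 765 and 829 CPM in inhibitor-treated, 726, 742 and 822 CPM in stimulated and 487, 431 and 489 CPM in unstimulated cells (log2 0.70 ± 0.12 in stimulated against unstimulated, SE, adjusted p = 0.00056, edgeR). Rps4x averaged 1358 ± 231 CPM in inhibitor-treated, 1175 ± 63.0 CPM in stimulated and 830 ± 125 CPM in unstimulated cells (SD, n = 3 each). None of the 4 was called in inhibitor-treated against stimulated cells, where 1 of the 84 genes was called higher and 10 lower. The counts do not separate the alleles of the cross.

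Genes around the ribosome were read from lists that, like the members, were chosen with earlier results of these data known. Over all genes tested, 32.0% were called higher and 34.0% lower in stimulated cells, 21.7% and 22.8% in inhibitor-treated against stimulated cells, and 26.3% and 26.1% in inhibitor-treated against unstimulated cells. Of the ribosomal proteins outside the naming rule, Rack1, a scaffold on the 40S head, was called higher in stimulated cells at log2 0.74, and Fau, a fusion of a ubiquitin-like domain and a 40S protein, was not (log2 0.34, adjusted p = 0.23, edgeR). Of 18 other mRNAs known to start with a TOP tract, 15 were called higher and 1 lower in stimulated cells, 3 higher and 5 lower in inhibitor-treated against stimulated cells, and 16 higher and 1 lower in inhibitor-treated against unstimulated cells, with median log2 fold changes of 0.94, -0.08 and 0.93. Npm1, a nucleolar histone chaperone, was the highest in stimulated cells at log2 2.18, and Tpt1, a translationally controlled protein, the lowest at -0.68. Of the 18 chaperones and late assembly factors of ribosomal subunits, 16 were called higher and 0 lower in stimulated cells, 4 higher and 1 lower in inhibitor-treated against stimulated cells, and 16 higher and 0 lower in inhibitor-treated against unstimulated cells. Mrto4, which holds the place of the stalk during 60S assembly, was the highest in stimulated cells at log2 2.01 and the gene called lower in inhibitor-treated against stimulated cells at -0.83. Of 17 genes of mTORC1 and Larp1, 7 were called higher and 7 lower in stimulated cells, 6 higher and 4 lower in inhibitor-treated against stimulated cells, and 11 higher and 2 lower in inhibitor-treated against unstimulated cells. In stimulated against unstimulated cells the extremes of this list were Eif4ebp1, the repressor of cap-dependent initiation, at log2 3.70 and Deptor, an inhibitor of mTOR, at -2.19. Larp1 itself was at log2 1.35 in stimulated against unstimulated cells and at -0.02 in inhibitor-treated against stimulated cells.

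The 78 nuclear genes for proteins of the mitochondrial ribosome are the nearest counterpart of the family. Of the 77 tested, 75 were called higher (32.0% of all genes) and 0 lower in stimulated cells, with a median log2 fold change of 1.27, against 59 of 84 and 0.75 for the cytosolic genes. In inhibitor-treated against stimulated cells 0 were called higher and 54 lower (22.8% of all genes), with a median of -0.47, against 1 higher, 10 lower and a median of -0.03 for the cytosolic genes. In inhibitor-treated against unstimulated cells 58 were called higher (26.3% of all genes) and 0 lower, with a median of 0.72, against 54 higher and a median of 0.67. The difference between the 2 families was not tested.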

How the data were processed

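RNA of splenic CD3+ T cells was sequenced in 9 libraries, 3 per group, after ribosomal RNA depletion with a stranded total RNA kit, per the labels' protocols. The deposited values are raw read counts per gene in 49671 rows. Per the submitters' processing notes, STAR 2.7.1a, featureCounts and the mm10 build were used. The annotation, the strand setting and whether mates were counted singly are not stated in those notes or in the labels. Overlapping antisense genes and near-identical copies may therefore share reads. Even numbers made up 70.6% to 78.5% of low counts (1 to 10), and intervals for counting error would need the number of independent fragments. No column of the table was left unused (0).

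Ensembl IDs were named from GENCODE M21, which held 49412 of them. The 276 pseudogene rows and 10 kinase rows of the family were left out, and 6 of these pseudogene rows are typed protein coding. Low counts were removed with filterByExpr, libraries were scaled by TMM, and all 9 libraries were fitted by group with edgeR 4.0.16 (glmQLFit, glmQLFTest, two-sided, Benjamini-Hochberg adjustment over 18374 genes, threshold 0.05) in R 4.3.3, on 6 residual degrees of freedom. A standard error is the log2 fold change over the square root of F. CPM were computed from TMM-scaled library totals. Shares of counts were compared by an exact permutation test in scipy 1.17.1. Alternatives were DESeq2 1.42.0, limma voom 3.58.1, other scalings and filters, fewer libraries and each library left out.

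Genes named are the 5 highest and 5 lowest called in each comparison, the 5 highest levels per kilobase, the stalk, paralog pairs and a few named by role; Rpl14, Rpl24 and Larp1 fall outside this rule and were named after their values were seen. Some genes that meet the rule are not reported here. Members, lists and tests were chosen with earlier results of these data known.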

Additional observations from a re-analysis of the deposited data

How the results depend on the processing

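Stimulated against unstimulated cells had 42 to 71 genes called higher over all alternatives, lowest with upper-quartile scaling, where the median log2 fold change was 0.52 and that of all genes moved from -0.05 to -0.27. Of all genes, 26.5% were called higher with upper-quartile scaling and 16.8% with no low-count filter, which gave the 71. The largest share of all genes was 38.7%, with a mean CPM of at least 10, where 49 genes of the family were called higher. The genes called lower numbered 0 with no low-count filter, with a mean CPM of at least 10 and with DESeq2, and 0 to 1 when each library was left out. In inhibitor-treated against stimulated cells, the genes called higher and lower were 10 and 5 with upper-quartile scaling, 10 and 9 with no scaling factors, 10 and 20 with no low-count filter, 8 and 10 with a mean CPM of at least 10, 6 and 13 with DESeq2, 3 and 11 with limma voom, and 7 and 10 with only the 6 libraries compared. Of all genes, 26.3%, 23.7%, 10.8%, 31.1%, 22.7%, 20.7% and 25.1% were called higher in these fits, in this order. The genes called lower numbered 3405, 3549, 4347, 2812, 4445, 4400 and 4511, of 18374, 18374, 34271, 8948, 18374, 18374 and 16630 tested. The median became 0.087 with upper-quartile scaling and 0.032 with no scaling factors, where that of all genes became 0.16 and 0.12; upper-quartile scaling moved the share of higher among called genes of the family from 9.09% to 66.7% and among all called genes from 48.8% to 58.6%. Leaving out each library gave 0 to 6 genes higher, 4 to 10 lower and a median of -0.20 to 0.12 (0.12 without inhibitor library 1, 0.000357 without stimulated library 1). Of all genes, 16.2% to 18.2% were called higher in these fits, and 3424 to 3859 genes were called lower. The median of all genes was -0.001 without inhibitor library 1 and 0.049 without stimulated library 1. In inhibitor-treated against unstimulated cells, 1 gene was called lower with limma voom and 1 without inhibitor library 1, and leaving out each library gave 35 to 70 called higher. Of all genes, 21.3% to 25.1% were called higher when each library was left out. Whether replicate numbers pair the samples cannot be told from so few libraries. Correlations of same-numbered libraries, after removal of group means, ran from -0.19 to 0.14 over all genes and from -0.36 to 0.41 over the family. With the replicate block, 53 genes were higher and 1 lower in stimulated against unstimulated, 2 and 8 in inhibitor-treated against stimulated, and 47 and 0 in inhibitor-treated against unstimulated cells. Of all genes, 31.0%, 19.8% and 24.8% were called higher with the block, in the same order, and 6002, 3940 and 4575 of 18374 genes lower. Over the named genes, 1867 values under alternatives stayed on their side of the threshold, 61 newly passed and 129 no longer passed, and signs changed only where neither value passed.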
